A study of Mus musculus with 18 samples.

Results

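Prostaglandins and prostacyclin are lipid mediators that sensitize sensory neurons to pain, and 10 genes of their synthesis and reception were examined in dorsal root ganglia (DRG) of mice with a tibial fracture. They were taken by gene name from the 36737 genes of the deposited table: the cyclooxygenases *Ptgs1* and *Ptgs2*, the terminal synthases *Ptges*, *Ptgds* and *Ptgis*, the prostaglandin E2 receptors *Ptger1*, *Ptger2*, *Ptger3* and *Ptger4*, and the prostacyclin receptor *Ptgir*. None of the 10 genes passed the test between any of the groups or between the sexes, although all 10 were detected in every library and were tested in every comparison.

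The study asked how Protectin DX (PDX), a lipid mediator made from docosahexaenoic acid, acts on postoperative pain after fracture. Bulk poly(A) RNA was sequenced from lumbar DRG of adult CD1 mice, an outbred stock, in 3 groups of 6 mice, each with 3 males and 3 females. The groups were sham-operated mice (Sham), mice with a tibial fracture that were given vehicle (Fracture), and mice with a tibial fracture that were given PDX (Fracture+PDX). Fracture was made by osteotomy over a pin placed in the bone under isoflurane, and the DRG of both fracture groups were taken on day 3 after it. No group carried a transgene or an engineered allele by the labels. Day of collection for Sham, and the dose and route of PDX in these particular mice, are not given in the sources used here. The fracture was on the left side, and whether ganglia of one or both sides were pooled is not given either.

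Prostanoids are made when a phospholipase A2 frees arachidonic acid from membranes and a cyclooxygenase turns it into prostaglandin H2. Terminal synthases then make the individual prostanoids: *Ptges* encodes the inducible microsomal prostaglandin E synthase, *Ptgds* the lipocalin-type prostaglandin D synthase, which is abundant in the meninges, and *Ptgis* prostacyclin synthase. *Ptgs1* encodes COX-1, which is expressed constitutively in many tissues, and *Ptgs2* encodes COX-2, the inducible enzyme; both are targets of nonsteroidal antiinflammatory drugs. In sensory neurons the receptors EP2 (*Ptger2*), EP4 (*Ptger4*) and IP (*Ptgir*) couple to Gs and raise cAMP, EP3 (*Ptger3*) couples mainly to Gi, and EP1 (*Ptger1*) raises intracellular calcium.

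The genes lie on 7 chromosomes of the mm10 mouse genome as the table gives them. *Ptgs1* (chr2:36230426-36252272, plus strand), *Ptges* (chr2:30889471-30903297, minus strand), *Ptgds* (chr2:25466709-25470046, minus strand) and *Ptgis* (chr2:167191805-167240604, minus strand) share chromosome 2, whereas *Ptgs2* lies at chr1:150100031-150108227 on the plus strand. The receptors are at chr8:83666678-83672753 (*Ptger1*, plus strand), chr14:44988195-45003820 (*Ptger2*, plus strand), chr3:157566892-157645888 (*Ptger3*, plus strand), chr15:5206661-5244172 (*Ptger4*, minus strand) and chr7:16906490-16910905 (*Ptgir*, plus strand). Whether counting used strand is not given in the sources used here, and without strand the reads of a gene and of antisense exons cannot be told apart. In the GENCODE annotation of the same build, antisense exons of *Gm15937* (0.025 FPKM, fragments scaled to transcript length and library total) cover 15.3% of the exonic bases of *Ptger4* and those of *Ttc33* (15.4 FPKM) a further 1.23%, and antisense exons cover under 10% of the exonic bases of *Ptgs1*, *Ptgis* and *Ptger2*.

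The promoters of the cyclooxygenase pair are shown because both genes had their lowest group mean after fracture, one in Fracture and the other in Fracture+PDX, while their products are classed as constitutive and inducible. Each window holds 300 bases of RefSeq (GRCm38.p6), from 250 bases before the annotated start to 50 after it, read 5′ to 3′ on the gene's strand, and capitals mark the motif matches given below.
Ptgs1: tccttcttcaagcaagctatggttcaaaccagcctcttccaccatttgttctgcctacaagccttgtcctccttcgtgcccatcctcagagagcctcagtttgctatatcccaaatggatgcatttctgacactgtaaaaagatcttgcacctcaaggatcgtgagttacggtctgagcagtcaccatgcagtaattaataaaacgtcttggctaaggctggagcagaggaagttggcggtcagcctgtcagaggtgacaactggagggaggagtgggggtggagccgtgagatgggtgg
Ptgs2: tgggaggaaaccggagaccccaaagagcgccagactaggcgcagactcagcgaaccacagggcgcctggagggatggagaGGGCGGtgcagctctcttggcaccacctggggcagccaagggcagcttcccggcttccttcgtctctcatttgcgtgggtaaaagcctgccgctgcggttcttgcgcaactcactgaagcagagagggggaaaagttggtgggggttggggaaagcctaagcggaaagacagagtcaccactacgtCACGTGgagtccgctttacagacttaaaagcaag
The windows are chr2:36230176-36230475 and chr1:150099781-150100080, both on the plus strand. They were searched on both strands for the cAMP response element TGACGTCA, the TATA box TATAAA, the E-box CACGTG and the GC box GGGCGG. Only exact matches to these letters were counted, and partial or variant elements were not sought. *Ptgs2* held 1 E-box, at position 267 of the window, and 1 GC box, at position 81, whereas *Ptgs1* held none of the 4 motifs. Of all 32851 promoters in the RefSeq table, 7.15% held the E-box and 35.7% the GC box. The *Ptgs2* window contained 16 CG dinucleotides and 59.3% G or C, and the *Ptgs1* window 6 and 50.7%. Among the 8 genes with an entry, 5 held a GC box (*Ptgs2*, *Ptges*, *Ptger3*, *Ptger4* and *Ptgir*), none held TGACGTCA (1.79% of all promoters) and none held TATAAA (13.6%).

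Total counts ranged from 63235040 to 82824942 per library, and 18 libraries were compared. The marker lists showed DRG tissue in every library, with summed levels of 7 neuronal markers between 17178 and 20607 CPM (counts scaled to a common library total by TMM factors) over the groups. *Atf3*, a transcription factor induced by axonal injury, was used to check the fracture label: it rose from 12.9 ± 1.09 CPM in Sham to 40.5 ± 17.3 in Fracture (SD, n = 6 each; log2 fold change 1.65, adjusted p = 0.0141, edgeR) and stood at 62.2 ± 27.3 in Fracture+PDX. Skeletal muscle markers summed to 11.2 to 989 CPM per library and passed 500 CPM in 3 libraries (Sham female 2, Fracture male 3 and Fracture female 2). Fracture+PDX female 3 (446 CPM) and Fracture male 1 (439 CPM) lay just below this cut, and the next library was at 188 CPM. Both stayed in the fits that left out the 3 libraries above 500 CPM, called muscle-rich below. Without the 3 muscle-rich libraries *Atf3* had a log2 fold change of 1.78 and an adjusted p of 0.138 (edgeR). Genes of placental trophoblast, a tissue outside the labels, summed to 124 to 398 CPM in Sham, 22.2 to 190 in Fracture and 20.1 to 99.0 in Fracture+PDX.

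Levels were first compared between genes on the FPKM scale, which is per transcript length. *Ptgds* was by far the highest, with 171 FPKM on average over the 18 libraries (range 79.2 to 314), above 99.5% of all genes. *Ptgir* followed at 14.4 FPKM (11.98 to 16.71), and its range overlapped neither that of *Ptgds* above it nor that of *Ptger3* below it. *Ptger3* averaged 4.98 FPKM, *Ptger1* 4.32, *Ptges* 3.63 and *Ptgis* 3.09, and the ranges of neighbours in this order overlapped. *Ptger4* (1.63 FPKM) overlapped with *Ptgis* above it and *Ptgs2* below it in range, although it was lower than *Ptgis* in 18 of 18 libraries. *Ptger2* was the lowest at 0.309 FPKM (0.19 to 0.38), below *Ptgs1* in every library and without overlap.

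**Figure D1:**
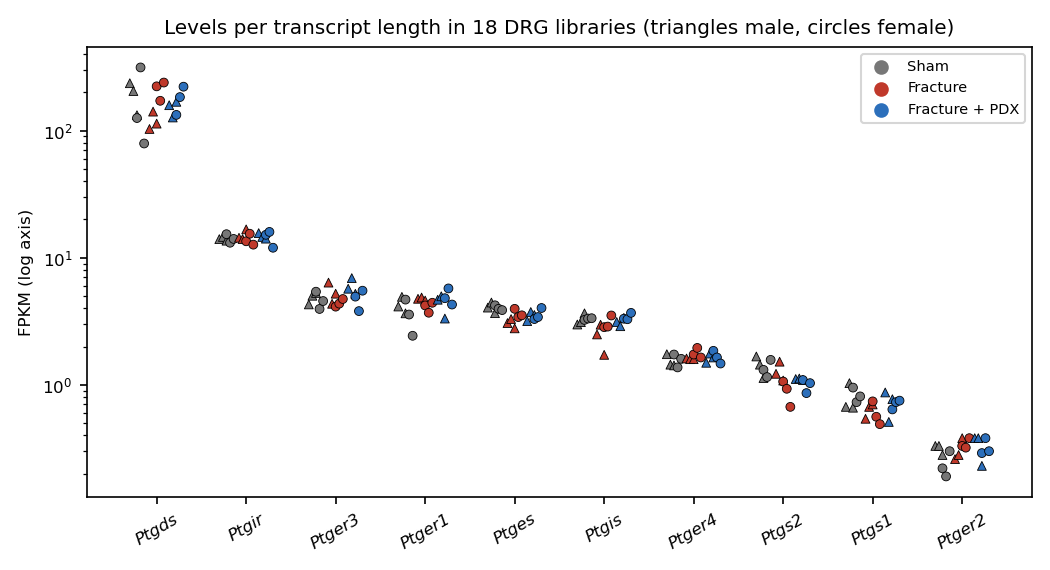
Level of each gene in FPKM (log axis) in each of the 18 libraries, ordered by mean, with triangles for males and circles for females and colours for the 3 groups. *Ptgds* lies between 79.2 and 314 FPKM, apart from all others, and *Ptger2* lies at or below 0.38 FPKM.

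Among the cyclooxygenases, the inducible *Ptgs2* was the more abundant transcript. *Ptgs2* averaged 1.17 FPKM (0.67 to 1.67) and *Ptgs1* 0.712 FPKM (0.49 to 1.03). *Ptgs2* exceeded *Ptgs1* within every library, 6 of 6 in each group, with a ratio of FPKM values between 1.18 and 2.49 and a median of 1.56. The median ratio was 1.64 in Sham, 1.60 in Fracture and 1.39 in Fracture+PDX, and the ranges of the 3 groups overlapped.

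Within Sham, *Ptgds* varied far more between mice than any other of the genes. Its Sham values were 145, 310 and 560 CPM (lowest, median and highest), a 3.86-fold range with a coefficient of variation of 46.5%. The median coefficient of variation of the 547 genes within 1.5-fold of its Sham mean was 4.40%, and 99.8% of them varied less. *Ptger1* also varied more than most genes of its level (23.0% against a median of 7.38%), whereas *Ptges* (6.76%), *Ptgis* (7.44%) and *Ptgir* (5.46%) varied less than the median of theirs.

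The first comparison asked which of these genes differed on day 3 after fracture. Of 20659 genes tested, 603 were called at an adjusted p below 0.05 (2.92%; edgeR's quasi-likelihood test with Benjamini-Hochberg adjustment, 225 higher and 378 lower), and 0 of the 10 prostaglandin genes were among them. Without the 3 muscle-rich libraries 3 genes were called, 1 higher and 2 lower, in a fit of 9 libraries in place of 12. Leaving out any 1 library gave 213 to 710 calls, and whether the loss came from muscle transcripts or from fewer mice was not tested. At an unadjusted p below 0.05 there were 3 of the 10, against 18.5% of all genes tested: *Ptges*, *Ptgs1* and *Ptgs2*, all with lower means after fracture. All 5 enzymes had a negative log2 fold change and all 5 receptors a positive one, but the positive sign of *Ptgir* and the negative sign of *Ptgds* turned when the 3 muscle-rich libraries were left out (to -0.069 and 0.20). *Ptger3* came to 0.0019 without them, and in fits without a single library its log2 fold change ranged from -0.044 to 0.095. The signs of these 3 genes therefore depended on single libraries. The median log2 fold change was -0.37 for the cyclooxygenases, -0.26 for the synthases and 0.13 for the receptors, beside 0.00207 over all genes tested. Without the muscle-rich libraries these medians were -0.40, -0.16 and 0.041.

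**Figure D2:**
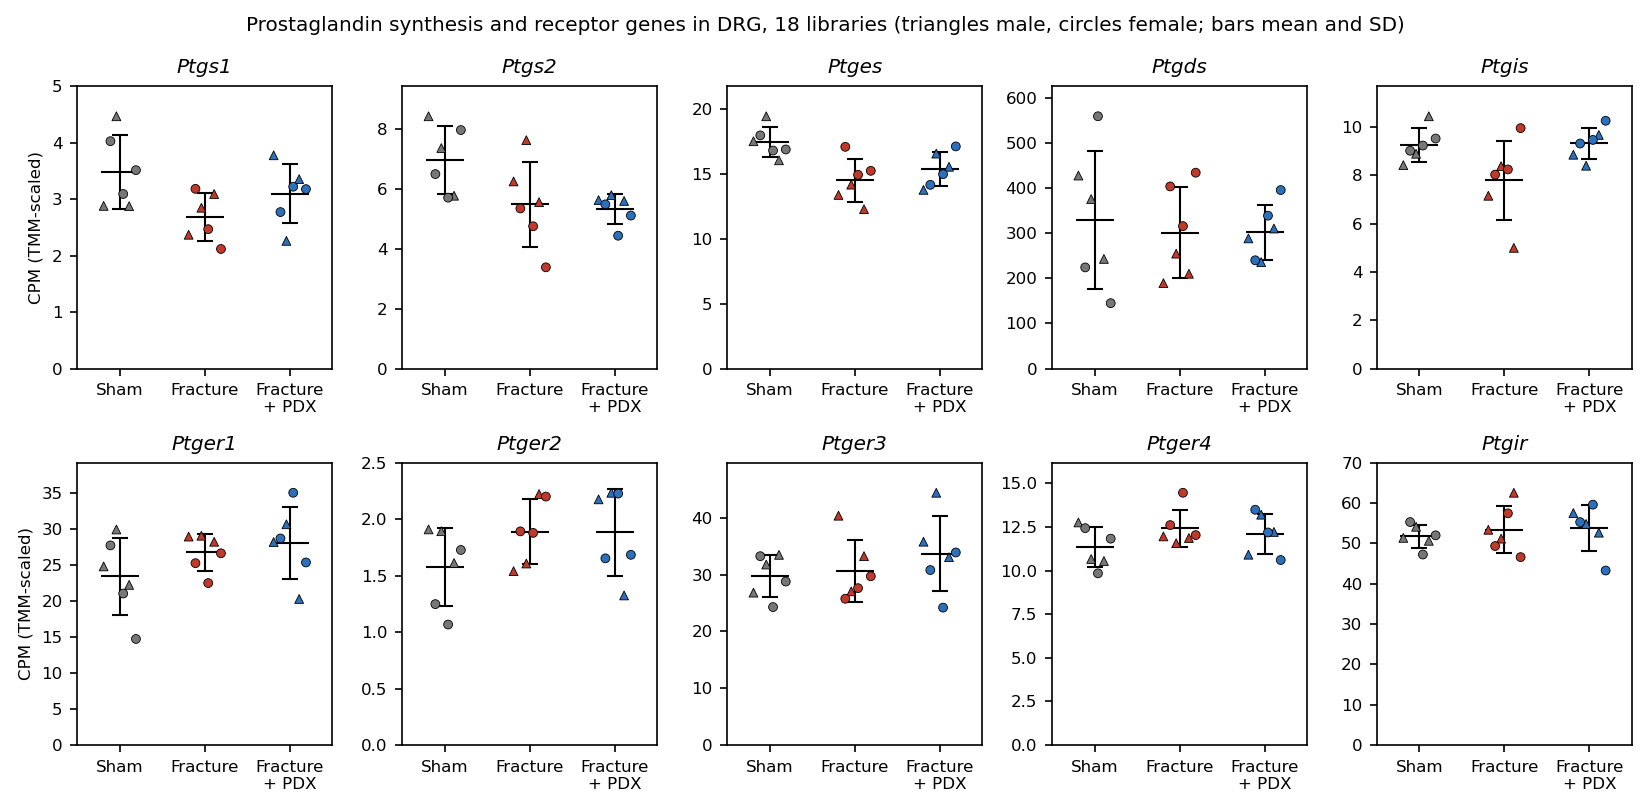
CPM of each gene in each library for Sham, Fracture and Fracture+PDX, 6 mice per group, each axis starting at 0; triangles are males, circles females, and bars give the mean and SD. The groups overlap for all 10 genes, with the *Ptges* means at 17.5, 14.5 and 15.4 CPM and *Ptgds* spread from 145 to 560 CPM.

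*Ptges*, which encodes the inducible prostaglandin E synthase, came closest to the threshold. Its levels were 16.1, 17.2 and 19.5 CPM in Sham (lowest, median and highest) and 12.3, 14.6 and 17.1 CPM in Fracture, and the means were 17.5 ± 1.18 and 14.5 ± 1.66 CPM (SD, n = 6 each). In 5 of 6 Fracture libraries *Ptges* was below every Sham library, and Fracture female 1 alone lay within the Sham range. The log2 fold change was -0.27 ± 0.073 (SE; 95% interval -0.44 to -0.11, edgeR), a difference of -17.1%, with an adjusted p of 0.0635. It passed under DESeq2 (adjusted p = 0.0133), in one edgeR fit of all 18 libraries (0.0445) and without Fracture female 1 (log2 fold change -0.31, 0.0370), while without the 3 muscle-rich libraries the adjusted p was 0.286 at a log2 fold change of -0.24. The call for *Ptges* therefore turned on the model and on single libraries.

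The cyclooxygenases had lower means after fracture by similar amounts, with larger errors. *Ptgs2* was at 5.70, 6.92 and 8.42 CPM in Sham (lowest, median and highest) and at 3.38, 5.44 and 7.62 CPM in Fracture. In 4 of 6 Fracture libraries it lay below every Sham library, and Fracture males 1 and 2 lay inside the Sham range. The log2 fold change of *Ptgs2* was -0.37 ± 0.15 (SE; 95% interval -0.71 to -0.02; adjusted p = 0.217, edgeR). *Ptgs1* was at 2.88, 3.30 and 4.47 CPM in Sham and at 2.12, 2.66 and 3.18 CPM in Fracture, with 4 of 6 Fracture libraries below every Sham library. Its log2 fold change was -0.38 ± 0.15 (SE; 95% interval -0.72 to -0.03; adjusted p = 0.203, edgeR), on 175 to 356 counts per library in these groups. Neither gene passed under any alternative, with adjusted p between 0.136 and 0.410 for *Ptgs1* and between 0.138 and 0.526 for *Ptgs2*.

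The other synthases did not pass either. *Ptgis* averaged 9.25 ± 0.69 CPM in Sham and 7.79 ± 1.64 in Fracture (SD, n = 6 each), where Fracture male 3 was lowest at 4.99 CPM and Fracture female 3 reached 9.95. The log2 fold change of *Ptgis* was -0.26 (95% interval -0.54 to 0.02; adjusted p = 0.284, edgeR), and it was -0.16 without the 3 muscle-rich libraries, of which Fracture male 3 is one. *Ptgds* averaged 329 ± 153 CPM in Sham and 302 ± 101 in Fracture, and its interval was wide, from -0.97 to 0.61 on the log2 scale. The interval includes both a lower and a higher level of *Ptgds* after fracture.

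Among the receptors, *Ptgir*, *Ptger3* and *Ptger4* were measured with the narrowest intervals. *Ptgir*, the most abundant receptor of the 5, was at 51.8 ± 2.82 CPM in Sham and 53.4 ± 5.79 in Fracture, with a log2 fold change of 0.04 and a 95% interval from -0.10 to 0.19. For *Ptger3* the means were 29.7 ± 3.73 and 30.6 ± 5.45 CPM and the interval ran from -0.19 to 0.27. *Ptger4* was at 11.4 ± 1.16 and 12.4 ± 1.06 CPM, and its interval was -0.05 to 0.31 on the log2 scale. Its log2 fold change was 0.13, and 0.041 without the 3 muscle-rich libraries. *Ptger1* (23.4 and 26.8 CPM; log2 fold change 0.20, adjusted p = 0.446, edgeR) and *Ptger2* (1.58 and 1.89 CPM; 0.27, 0.452) had the largest positive differences. *Ptger2* was 0.10 on the log2 scale without the 3 muscle-rich libraries.

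**Figure D3:**
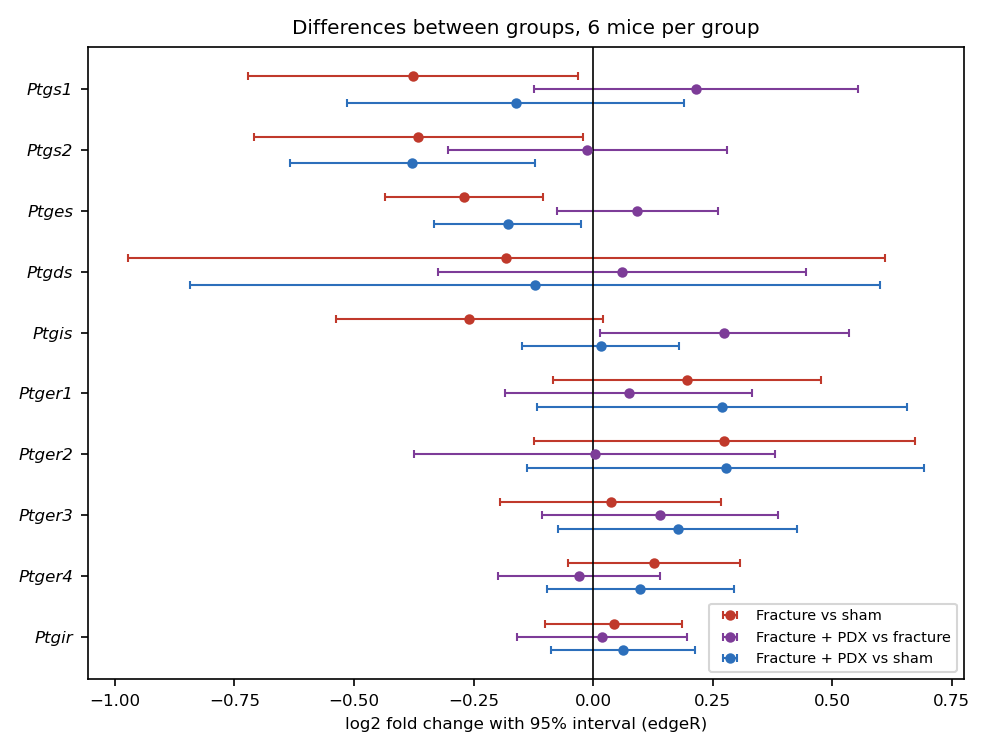
Log2 fold change of each gene (edgeR) with its 95% interval for Fracture against Sham, Fracture+PDX against Fracture and Fracture+PDX against Sham, 6 mice per group. The interval for *Ptges* in Fracture against Sham runs from -0.44 to -0.11 and those for *Ptgds* against Sham are the widest; no gene passed after adjustment over all genes.

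Markers of several cell types moved with fracture in the same libraries. Skeletal muscle markers had the largest median difference of the 17 lists (6 of 6 positive, 0 called, median log2 fold change 1.99), with sums of 21.2 to 541 CPM in Sham and 43.8 to 989 in Fracture, and the median was 1.83 without the 3 muscle-rich libraries. The neuronal sum lay between 17178 and 18658 CPM in Sham and between 18909 and 20187 in Fracture without overlap, and 3 of 7 neuronal markers were called higher (*Tubb3*, *Uchl1* and *Nefm*). Of 8 macrophage markers all 8 had negative log2 fold changes and *Csf1r* and *Adgre1* were called lower, with sums of 104 to 119 CPM in Sham and 74.8 to 107 in Fracture. Fibroblast markers (6 of 6 negative, *Dcn* called lower) summed to 1755 to 2316 CPM in Sham and 1639 to 1883 in Fracture, and leptomeningeal markers (7 of 7 negative, 0 called) to 277 to 513 and 248 to 382. All 5 Schwann cell and all 6 neutrophil markers were negative as well, with *Cxcr2* called lower. The endothelial sum was 96.3 to 121 CPM in Sham and 86.0 to 103 in Fracture, with *Cdh5* called lower, but 2 of the 6 markers were positive and the median log2 fold change was -0.034. Of the other lists, peptidergic nociceptor markers (3 of 5 positive, median 0.058) had *Adcyap1* called higher, the trophoblast genes had *Prl3d1* and *Prl2c2* called lower, and 10 of the 17 lists had 0 called. Without the 3 muscle-rich libraries 0 of these 11 marker calls passed (adjusted p from 0.0680 for *Csf1r* to 0.258 for *Prl2c2*, edgeR), although all 11 kept their sign at log2 fold changes of like size (*Tubb3* 0.17 and then 0.16, *Cxcr2* -1.25 and -1.30, *Cdh5* -0.73 and -0.60), while 2 of the 8 macrophage and 1 of the 7 leptomeningeal markers turned positive and the macrophage median went from -0.23 to -0.13. No defining marker of these lists was at 0 in all libraries. Their part in the prostaglandin gene values was not tested, and in bulk tissue fewer cells of a type cannot be told apart from less RNA per cell.

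The second comparison asked what PDX changed after fracture. Of 20562 genes tested none was called (0%; edgeR, lowest adjusted p 0.671, with 1113 genes at an unadjusted p below 0.05), and 0 of the 10 prostaglandin genes passed. DESeq2 called 10 genes, none of them a prostaglandin gene. *Ptgis* had the lowest p of the 10: it was at 4.99, 8.13 and 9.95 CPM in Fracture (lowest, median and highest) and at 8.39, 9.38 and 10.3 CPM in Fracture+PDX. In 5 of 6 Fracture libraries *Ptgis* was below every Fracture+PDX library, and its mean of 9.32 ± 0.65 CPM under PDX was close to the 9.25 CPM of Sham. The log2 fold change was 0.27 ± 0.11 (SE; 95% interval 0.01 to 0.53; adjusted p = 0.901, edgeR), and it was 0.16 without the muscle-rich libraries and 0.18 without Fracture male 3. Of the cell type markers 0 were called between these groups, but several lists leaned one way. Skeletal muscle markers were negative in 6 of 6 (median log2 fold change -1.84), as were trophoblast genes in 7 of 7 (-0.57). Macrophage (8 of 8, 0.23), neutrophil (6 of 6, 0.92), platelet (5 of 6, 0.65) and red blood cell markers (5 of 5, 0.27) were mostly positive. Without the muscle-rich libraries 6 of 8 macrophage markers were positive (median 0.11), and the skeletal muscle median was -1.12. What part these markers had in the *Ptgis* values was not tested.

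For the other 9 genes the 95% intervals of the PDX difference all included 0. *Ptgs2* averaged 5.48 ± 1.42 CPM in Fracture and 5.33 ± 0.50 in Fracture+PDX, a log2 fold change of -0.01 with a 95% interval from -0.30 to 0.28. *Ptgs1* averaged 2.68 ± 0.43 and 3.09 ± 0.52 CPM (log2 fold change 0.21, interval -0.12 to 0.55). The *Ptges* mean was 14.5 CPM without and 15.4 ± 1.32 CPM with PDX, and its interval ran from -0.08 to 0.26. *Ptgds* was at 302 CPM in both groups (interval -0.32 to 0.44). The receptor intervals were -0.18 to 0.33 for *Ptger1*, -0.37 to 0.38 for *Ptger2*, -0.11 to 0.39 for *Ptger3*, -0.20 to 0.14 for *Ptger4* and -0.16 to 0.20 for *Ptgir*. These intervals bound differences of the size shown and do not establish that PDX left the genes alone.

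The third comparison set Fracture+PDX against the same Sham mice. Here 925 of 20574 genes were called (4.5%; edgeR, 447 higher and 478 lower), and again 0 of the 10 prostaglandin genes. *Ptgs2* had the lowest adjusted p, 0.0817. It was at 4.43, 5.53 and 5.78 CPM in Fracture+PDX against 5.70, 6.92 and 8.42 CPM in Sham (lowest, median and highest), so that 5 of 6 treated libraries lay below every Sham library and the remaining one just inside the range. Its log2 fold change was -0.38 ± 0.11 (SE; 95% interval -0.63 to -0.12, edgeR), a difference of -23.0%. *Ptgs2* passed under DESeq2 (adjusted p = 0.0236) and without Sham male 3 (log2 fold change -0.44, 0.0470), and its adjusted p ranged from 0.0236 to 0.153 over the alternatives. *Ptges* was also lower on average (log2 fold change -0.18 ± 0.068; adjusted p = 0.176, edgeR), whereas *Ptgis* was at 0.02 with an interval from -0.15 to 0.18. The 5 receptors again had positive log2 fold changes, from 0.06 for *Ptgir* to 0.28 for *Ptger2*, with adjusted p from 0.449 to 0.695. Because both fracture groups were set against the same 6 Sham mice, the likeness of these values to those of Fracture against Sham is not a separate observation.

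The study held both sexes in equal numbers, so males and females were compared over the 18 libraries with group in the model. Of 22557 genes tested 62 were called (0.275%; edgeR), and 0 of the 10 prostaglandin genes. *Ptger3* was at 26.8, 33.3 and 44.4 CPM in males and 24.2, 28.8 and 33.9 in females (lowest, median and highest), with 3 of 9 males above every female and 3 of 9 females below every male. The log2 fold change of *Ptger3*, female against male, was -0.24 ± 0.091 (SE; 95% interval -0.43 to -0.04; adjusted p = 0.364, edgeR). Non-peptidergic nociceptor markers were lower in females on average as well (5 of 5 negative, 0 called, median log2 fold change -0.15), while macrophage (8 of 8), leptomeningeal (7 of 7, median 0.23) and skeletal muscle markers (6 of 6, median 1.16) were positive with 0 called. Their part in the sex differences was not tested. *Ptgs2* averaged 6.44 ± 1.07 CPM in males and 5.401 ± 1.29 in females (SD, n = 9 each), and 6 of 9 females lay below every male (log2 fold change -0.27 ± 0.11, SE; adjusted p = 0.419, edgeR). All 6 of these females were from Fracture or Fracture+PDX, and the Sham means of *Ptgs2* were 7.18 CPM in males and 6.71 in females. *Ptgds* averaged 282 ± 78.3 CPM in males and 340 ± 126 in females, with an interval from -0.23 to 0.81 on the log2 scale.

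The effect of fracture was next compared between the sexes by an interaction term. No gene was called for fracture (0%; edgeR, 1488 of 20659 genes at an unadjusted p below 0.05) and 1 gene for PDX (0.00486% of 20562), which was not a prostaglandin gene, and 0 of the 10 genes had an unadjusted p below 0.05 in either interaction over all libraries. The means of *Ptgds* differed in opposite directions: males went from 349 ± 95.3 CPM in Sham to 218 ± 33.4 in Fracture and females from 310 ± 220 to 385 ± 61.6 (SD, n = 3 each), with overlapping ranges in both sexes. The interaction of *Ptgds* was 0.99 ± 0.64 on the log2 scale (SE; adjusted p = 0.801, edgeR). It was 1.83 ± 0.46 without the 3 muscle-rich libraries (unadjusted p = 0.00761, adjusted p = 0.632, edgeR), 1.73 without Sham female 2, 1 of these 3, and 0.65 without Sham female 3. In the same interaction all 7 leptomeningeal markers were positive (median 0.53, and 0.69 without the muscle-rich libraries), as were all 5 Schwann cell markers (median 0.70), and all 6 skeletal muscle markers were negative (median -3.97), with 0 called. Their part in the *Ptgds* value was not tested. For *Ptges* the values of 3 Fracture males, 12.3 to 14.2 CPM, lay below those of all 3 Sham males, 16.1 to 19.5 CPM, whereas female ranges overlapped (14.9 to 17.1 and 16.8 to 17.98 CPM). The interaction of *Ptges* was 0.28 ± 0.13 (SE; adjusted p = 0.693, edgeR). For *Ptgs2* it was the female ranges that did not overlap, at 3.38 to 5.34 CPM in Fracture and 5.70 to 7.96 in Sham, with an interaction of -0.44 ± 0.29 (SE; adjusted p = 0.799, edgeR). Without the 3 muscle-rich libraries the interaction of *Ptgs2* was -0.69 ± 0.35 (adjusted p = 0.757, edgeR). Male ranges of *Ptgis* (4.99 to 8.37 CPM in Fracture and 8.42 to 10.4 in Sham) did not overlap either. The same held for female ranges of *Ptger2* (1.88 to 2.20 and 1.07 to 1.73 CPM). How many of all genes separated in this way at n = 3 was not computed.

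Each of the 10 genes was set beside the 17 marker lists, library by library, and *Ptgds* gave the closest relation. After the mean of each combination of group and sex was removed, the log2 CPM of *Ptgds* tended to deviate in the same direction as the mean of 7 leptomeningeal markers (Pearson r = 0.80, permutation p = 0.00129, Spearman rho = 0.89, permutation p = 0.000664, by exact two-sided permutation of libraries within group and sex, 18 libraries, 46656 permutations). In Fracture female 1, Fracture+PDX male 1, Fracture+PDX male 2 and Fracture+PDX female 2 the directions were opposite. The Benjamini-Hochberg adjusted p-values over the 170 relations computed, 10 genes by 17 marker lists, were 0.219 and 0.113, and 0 of the 170 passed. With the 2 most extreme libraries on the marker axis left out, r was 0.71. Of the single markers, *Slc22a6* (r = 0.84), *Slc6a13* (0.78) and *Slc13a3* (0.70), transporters of the leptomeninges, followed *Ptgds* most closely, and *Ogn*, which made up 85.3% of the summed level and is also expressed by fibroblasts, did not (0.02). The summed level accordingly had an r of 0.14, so the relation depended on giving each marker equal weight.

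**Figure D4:**
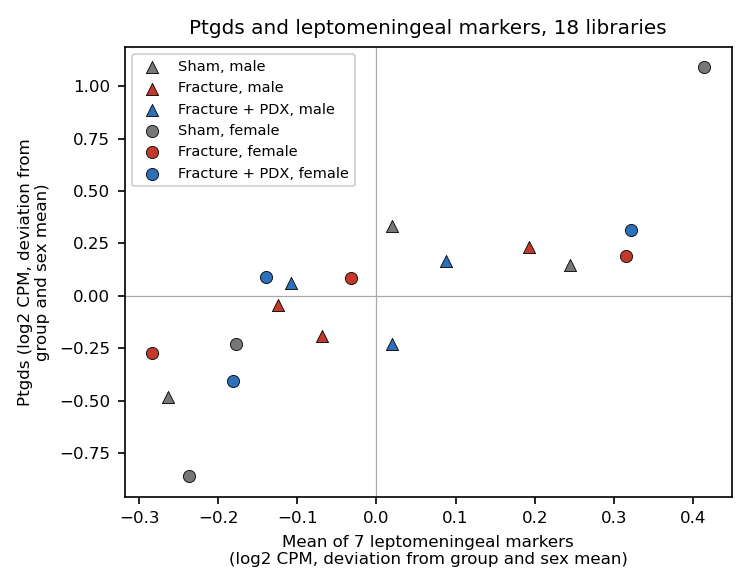
Deviation of *Ptgds* from the mean of its group and sex (log2 CPM) against the same deviation of the mean of 7 leptomeningeal markers, one point per library, with triangles for males and circles for females. The points rise together (r = 0.80 over 18 libraries), and the 2 most extreme *Ptgds* values are Sham females at 1.09 and -0.86.

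The genes with the most similar pattern to each member over the 18 libraries were found among 15178 genes with a mean count of at least 100, on the same deviations and as a description. *Ptgds* was most like *Atp13a5* (r = 0.91), *Slc6a20a* (0.91) and *Nr2f1* (0.90). *Ptgir* was most like *Nol6* (0.92), *Ptger3* like *Lypla1* (0.90), *Ptger4* like *Plekhb2* (0.89) and *Ptger1* like *Aurka* (0.88). *Ptgs1* was most like *Fbxo5* (0.89), *Ptgis* like *Rhou* (0.85), *Ptges* like *Gpr182* (0.83) and *Ptgs2* like *Grk3* (0.81), while *Ptger2* was most like the noncoding *A730081D07Rik* (0.88). All genes of a library share its depth and tissue composition, and the highest of 15178 correlations over 18 libraries is large for any gene.

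The wider pathway was covered by 67 further genes in 5 lists, of which 64 were in the table. Fracture against Sham called 2 of 59 tested (3.39%, beside 2.92% of all genes). *Slco2a1*, the transporter that takes prostaglandins into cells for breakdown, fell from 10.5 ± 0.75 to 8.37 ± 0.44 CPM (SD, n = 6 each) without overlap between the groups (9.60 to 11.5 and 7.81 to 8.76 CPM; log2 fold change -0.33 ± 0.069, SE; adjusted p = 0.0255, edgeR). *Prkar1b*, a regulatory subunit of protein kinase A, rose from 623 ± 17.4 to 671 ± 13.8 CPM, also without overlap (log2 fold change 0.11, adjusted p = 0.0457, edgeR). Neither call held without the 3 muscle-rich libraries (*Slco2a1* -0.25, adjusted p = 0.252; *Prkar1b* 0.099, 0.285; edgeR), and with 1 library left out at a time *Slco2a1* was called in 7 of 12 fits and *Prkar1b* in 2 of 12. Of 7 other alternatives *Slco2a1* passed in 5, failing under the replicate block and limma, and *Prkar1b* in 3, failing under upper-quartile factors, without the filter, under the block and under limma. *Slco2a1* is also expressed by endothelial cells, whose markers are given above, and its values were 7.35 to 9.47 CPM in Fracture+PDX.

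Fracture+PDX against Fracture called 0 of 58 genes of the wider lists, and female against male 0 of 60. Fracture+PDX against Sham called 5 of 59 (8.47%, beside 4.5% of all genes). *Pla2g7*, the plasma-type platelet-activating factor acetylhydrolase, was higher (297 ± 15.8 CPM in Sham and 330 ± 18.5 in Fracture+PDX; log2 fold change 0.16, adjusted p = 0.0253, edgeR), and so was *Prkacb*, a catalytic subunit of protein kinase A (246 ± 4.72 and 266 ± 13.8 CPM; 0.11, 0.0455). The adenylyl cyclase *Adcy7* was lower (22.2 ± 3.11 and 16.6 ± 1.15 CPM; log2 fold change -0.41, adjusted p = 0.0168, edgeR), as was *Rapgef3*, which encodes the cAMP sensor Epac1 (20.7 ± 4.36 and 13.9 ± 1.18 CPM; -0.57, 0.0278). *Pla2g4d* was called lower at very low levels, 0.687 ± 0.24 CPM in Sham and 0.138 ± 0.10 in Fracture+PDX (adjusted p = 0.0161, edgeR). Without Sham female 2, the library of this comparison above the muscle cut of 500 CPM, 3 of the 5 passed, and *Prkacb* (log2 fold change 0.13, adjusted p = 0.0516, edgeR) and *Rapgef3* (-0.52, 0.0689) did not, at differences of like size. With 1 library left out at a time, *Pla2g4d* and *Adcy7* were called in 12 of 12 fits, *Pla2g7* in 6, *Rapgef3* in 3 and *Prkacb* in 2. Of the 7 other alternatives *Adcy7* and *Rapgef3* passed in 7, *Pla2g4d* in 6 (not under the replicate block), *Pla2g7* in 6 (not under limma) and *Prkacb* in 2. Marker lists moved in this comparison as well: *Tubb3*, *Uchl1* and *Rbfox3* of 7 neuronal markers, *Adcyap1* and *Kcnj10* were called higher, and *Csf1r*, *Cdh5* and 6 of 7 trophoblast genes (median log2 fold change -2.23) lower. Of these 13 marker calls 10 passed without Sham female 2, and all 13 kept their sign. *Uchl1* (adjusted p = 0.0938, edgeR), *Kcnj10* (0.0843) and *Psg21*, a trophoblast gene (0.0640), did not pass. All 6 fibroblast (median -0.25) and all 6 pericyte markers (median -0.20) were negative with 0 called. Their part in the calls of the wider lists was not tested.

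**Figure D5:**
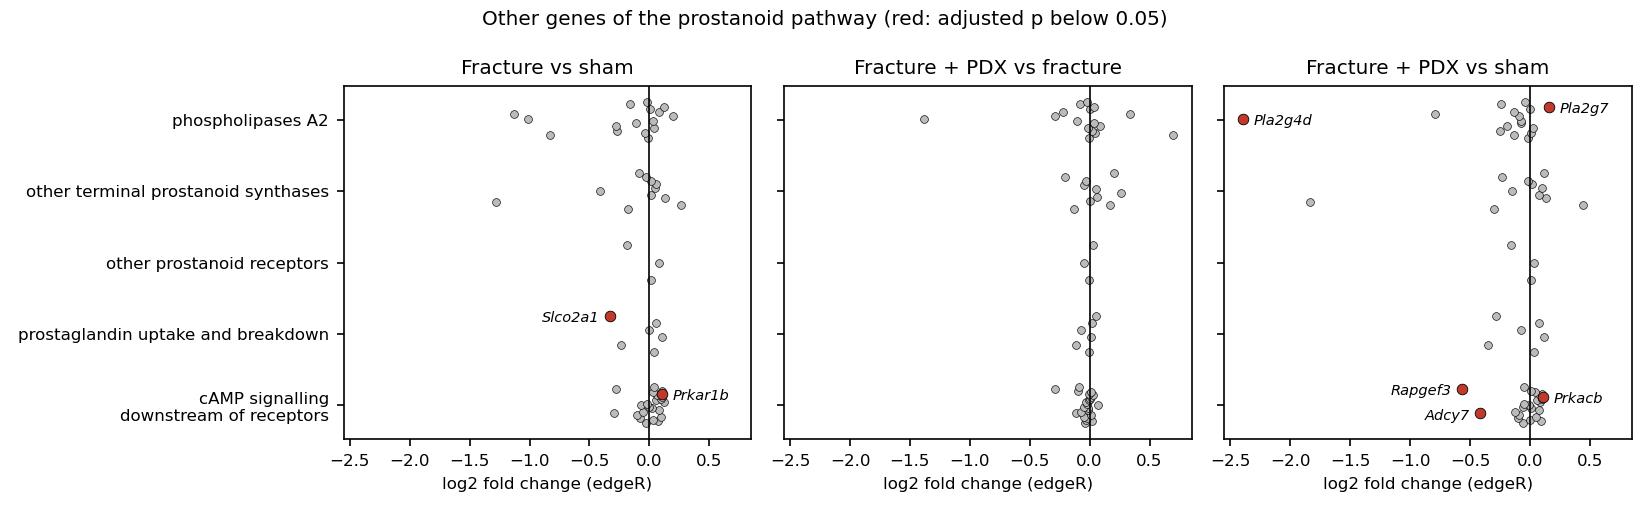
Log2 fold change (edgeR) of each tested gene of 5 wider pathway lists in the 3 group comparisons, with genes called at an adjusted p below 0.05 in red and named. Fracture against Sham has 2 called genes, Fracture+PDX against Fracture none, and Fracture+PDX against Sham 5.

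By list, the 11 other terminal synthases split into 6 positive and 5 negative log2 fold changes after fracture, with 0 called, and the most abundant were *Ptges3* (34.2 FPKM), *Prxl2b* (31.4 FPKM) and *Cbr1* (21.0 FPKM). Hematopoietic prostaglandin D synthase (*Hpgds*) was at 0.228 FPKM, so that the lipocalin type *Ptgds* accounted for nearly all prostaglandin D synthase transcript. Thromboxane synthase (*Tbxas1*) was at 0.131 FPKM. Among the other receptors, the prostaglandin D2 receptor *Ptgdr* was at 8.50 FPKM, the thromboxane receptor *Tbxa2r* at 5.07 and the prostaglandin F receptor *Ptgfr* at 4.90, with 0 of 3 called, and *Ptgdr2* at 0.02 FPKM was too low to test. Of 16 phospholipases A2 tested, 6 were positive and 10 negative with 0 called after fracture; *Pla2g7* (98.7 FPKM), *Plaat3* (14.5) and *Pla2g6* (9.71) were highest. The 6 genes of uptake and breakdown in the table included *Ptgr2* (6.54 FPKM), *Ptgfrn* (5.94), a regulator of the prostaglandin F receptor, and *Ptgr1* (5.38), none of which was called, and of the 23 genes of cAMP signalling 14 were positive and 9 negative after fracture, with *Prkar1b* the single call. The highest of these were *Prkar1a* (193 FPKM), *Gnas* (157), the Gs alpha subunit, and *Prkar1b* (155).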

How the data were processed

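Bulk mRNA of 18 DRG libraries, 1 per mouse, was sequenced on an Illumina NovaSeq after a stranded poly(A) preparation. The authors deposited read counts per gene and FPKM values for 36737 genes; the submitters' notes name cutadapt 1.10, FastQC, HISAT2, StringTie and the mm10 build, and the counting program, its strand setting and the annotation release are not given in the sources used here. Deposited counts are not normalized; deposited FPKM values are scaled by the authors to transcript length and library total. Total counts were 63235040 to 82824942 per library.

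The counts were tested in R 4.3.3 with edgeR 4.0.16 (TMM factors, filterByExpr with a minimum count of 10 and a minimum total of 15, robust quasi-likelihood test) on the 12 libraries of the 2 groups compared, with sex in the model; sex was tested on all 18 with group in the model, and interactions of sex on 12. Genes were called at a Benjamini-Hochberg adjusted p below 0.05 over all genes tested, and 95% intervals use the SE of the fit. CPM were scaled by TMM over 18 libraries, and log2 CPM used a prior count of 2. FPKM served to compare levels between genes. The script was tested on simulated data. No 2 libraries of a group were alike within counting noise (45 pairs, chi-square per gene 18.9 to 56.2).

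Groups came from the titles. The deposited columns used for Sham are headed Con, which was taken as Sham because it is the only column group without fracture. The 10 genes, the 5 wider pathway lists and the 17 marker lists were chosen with earlier results of these data known. Named genes were all 10 members, genes of the wider lists called in any comparison (at most 8), the 3 highest of each list by FPKM, the 3 most similar genes per member (mean count of at least 100), and *Atf3*; *Hpgds*, *Tbxas1* and *Ptgdr2* and the called marker genes were named after their values were seen. Sequences came from the RefSeq table of GRCm38.p6, which held 8 of the 10 genes, and overlaps from GENCODE, of which 1 is not reported here. Alternatives were DESeq2 1.42.0, upper-quartile factors, no filter, all 18 libraries in one fit, no sex term, a replicate block, limma 3.58.1 on log2(FPKM + 0.1), and leaving out each library. Leaving out the 3 muscle-rich libraries was added after seeing the data.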

Additional observations from a re-analysis of the deposited data

Results flagged for a closer look

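Of 30 sets of 6 values examined, 10 genes in 3 groups, 1 held a library far from the others: *Ptger4* in Fracture female 2, at 14.5 CPM beside 11.6 to 12.6 CPM in the other 5 Fracture libraries. The gap was 0.641 of the range of the group, above Dixon's 95% critical value of 0.625 for 6 samples. Chance gives such a value in about 1 in 20 groups. Fracture female 2 is 1 of the 3 libraries rich in skeletal muscle transcripts.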

How the results depend on the processing

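The number of genes called moved by more than 1.5 times under several alternatives. DESeq2 called 1506 genes for fracture against sham, 10 for fracture plus PDX against fracture, 1627 for fracture plus PDX against sham, 326 for female against male, 58 for the interaction of sex with fracture and 8 for that of sex with PDX. Without the 3 libraries rich in muscle transcripts, an alternative chosen after seeing the data, the counts were 3 for fracture against sham, 526 for fracture plus PDX against sham, 24 for female against male and 3 for the interaction of sex with PDX. Female against male called 24 genes without the sham libraries and 15 without the fracture plus PDX libraries, and limma on FPKM called 0 for the interaction of sex with PDX. Leaving out single libraries gave 213 to 710 genes for fracture against sham, 0 to 1 for fracture plus PDX against fracture, 498 to 1008 for fracture plus PDX against sham, 23 to 82 for female against male, 0 to 1 for the interaction of sex with fracture and 1 to 2 for that of sex with PDX; fewer samples enter these fits, and other causes were not tested. The lowest of these for fracture against sham was without Fracture female 2, and 8 of the 12 libraries moved that count by over 1.5 times.

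Prostaglandin genes called were 1 under DESeq2 and 1 in one fit of all 18 libraries for fracture against sham (*Ptges* in both), and 1 under DESeq2 for fracture plus PDX against sham (*Ptgs2*); leaving out single libraries gave 0 to 1 in these 2 comparisons and 0 to 0 in the others. The cause was not tested.

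The correlations between deviations of same-numbered mice were -0.14 to 0.28 over 18 pairs, with 5 above 0.1. All 3 male pairs of Fracture and Fracture+PDX were above 0.1 (0.15 to 0.28) and each was closest to its own number, whereas the 3 female pairs of these groups were at -0.14 to 0.075; the labels tie the numbers to nothing shared, so they were not taken to pair the mice. With the number as a replicate block, 118 genes were called for fracture against sham, 486 for fracture plus PDX against sham and 21 for female against male, with 0 prostaglandin genes; *Ptgs2* was at 0.0027 and *Ptger2* at -0.0086 for fracture plus PDX against fracture.

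Signs turned for values near 0 or with wide errors, all uncalled. Without the muscle-rich libraries the log2 fold changes were 0.20 (*Ptgds*) and -0.069 (*Ptgir*) for fracture against sham, -0.023 (*Ptgds*) and 0.013 (*Ptger4*) for fracture plus PDX against fracture, 0.17 (*Ptgds*) for fracture plus PDX against sham, 0.042 (*Ptgs1*) for female against male, -0.040 (*Ptger4*) for sex with fracture and -0.052 (*Ptgs1*) for sex with PDX. *Ptger2* was at -0.00022 without the filter and -0.00065 with all libraries for fracture plus PDX against fracture, and at 0.055 for female against male without sham. The limma fit gave -0.00091 for *Ptgis* (fracture plus PDX against sham) and 0.0015 for *Ptgs1* (female against male). Leaving out single libraries turned the sign of *Ptger3* (-0.044 to 0.095), *Ptgds* (-0.39 to 0.057) and *Ptgir* (-0.0032 to 0.075) for fracture against sham. It turned that of *Ptgds* (-0.016 to 0.17), *Ptger2* (-0.062 to 0.084), *Ptgs2* (-0.11 to 0.069), *Ptgir* (-0.028 to 0.071), *Ptger4* (-0.065 to 0.016) and *Ptger1* (-0.0080 to 0.17) for fracture plus PDX against fracture, and of *Ptgis* (-0.0098 to 0.064) and *Ptgds* (-0.29 to 0.17) for fracture plus PDX against sham. It also did so for *Ptgs1* (-0.078 to 0.039) in female against male, *Ptger1* (-0.14 to 0.30) in sex with fracture and *Ptger3* (-0.22 to 0.063), *Ptgs1* (-0.12 to 0.24) and *Ptgir* (-0.027 to 0.19) in sex with PDX. Counts per library were lowest for *Ptger2* and *Ptgs1*, and how far counting error widened their intervals was not tested.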
